A study of Mus with 8 samples.

Results

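The steroid-metabolising enzymes of mouse liver described here are encoded by 8 of the 54532 genes in the count table: Hsd3b5, Hsd3b2, Hsd3b3, Hsd11b1, Hsd17b2, Hsd17b6, Srd5a1 and Akr1c6. They were chosen by name from the results of the comparison between the 2 groups of livers, so their differences between those groups are given as a description and support nothing further. All 8 genes passed the filter on low counts that left 11729 genes to test. Hsd3b5 passed it through its counts in 1 group only.

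The mice had colitis from dextran sulfate sodium (DSS), a polysaccharide that injures the lining of the colon, given at 2.5% and stopped on day 6. Liver RNA was sequenced from 4 samples whose treatment label is DSS alone and from 4 whose label adds alcohol and a high-fat diet, here called the diet-alcohol group. All 8 libraries are therefore from mice given DSS, the diet and the alcohol came together, and mice that never had DSS were not analysed here. What the DSS group was fed afterwards is unclear from the labels, which also give no strain, sex, age or batch. Nothing says that each library came from its own mouse, so p-values reflect only how these libraries vary, which may be technical.

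Steroid dehydrogenases and reductases move hydrogen on or off the steroid skeleton, and this sets whether a hormone can bind its receptor. In liver much of this activity prepares steroids for conjugation and excretion, by reduction of the ring and of the 3-keto group and by oxidation of the 17-beta hydroxyl. Hsd11b1 works the other way for glucocorticoids and regenerates active corticosterone inside the cell. Hsd3b5 is known for its expression in male mouse liver, where the pulses of growth hormone and the transcription factor STAT5 maintain male-biased genes.

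Each library held between 12502300 and 16967839 counts. Transcripts of the mitochondrial genome took 55.8 to 79.1% of counts in the DSS group and 30.2 to 73.0% in the diet-alcohol group (exact two-sided permutation p = 0.143, n = 4 each). Library 35 of the diet-alcohol group stood apart: 10.6% of the tested genes had no count there, against 0.0256 to 0.716% in each of the other 7 libraries. A limit of 3 counts in a library corresponded to 0.119 to 0.447 CPM (counts scaled to a fixed library size), which covers counting error only.

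The 8 genes were all lower on average in the diet-alcohol livers. The fold ran from 1.52 for Akr1c6 to 34.3 for Hsd3b5, with empty libraries of Hsd3b5 set at 3 counts each. In the fit over all genes (quasi-likelihood F test of edgeR, threshold 0.05 on the adjusted p), 2 of the 8, Hsd3b5 and Hsd11b1, were called lower and 0 were called higher. Over all tested genes 1.26% were called in either direction and 0.674% were called lower. Without library 35 the fit also called Srd5a1, which made 3 of 8, and 308 of all 12097 tested genes were called. Hsd3b5 alone was called, 1 of 8, without DSS library 48, 49 or 50 or diet-alcohol library 45 and with the mitochondrial share of counts as a covariate, and Hsd11b1 alone with limma-voom. The authors' deposited table, from the same 8 libraries, called 5 of the 8 at an adjusted p under 0.05. These were Hsd3b5, Hsd3b3, Hsd11b1, Hsd17b6 and Srd5a1. The share of all genes called there was not counted. DESeq2, another test for counts, called the same 5 here and 431 of all 22049 genes. For 4 genes, Hsd3b5, Hsd11b1, Hsd17b2 and Srd5a1, every diet-alcohol library lay below every DSS library in CPM, which was the case for 4.63% of tested genes. The median log2 fold change of the 8 genes was -1.67, and that of all tested genes was -0.0058.

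**Figure D1:**
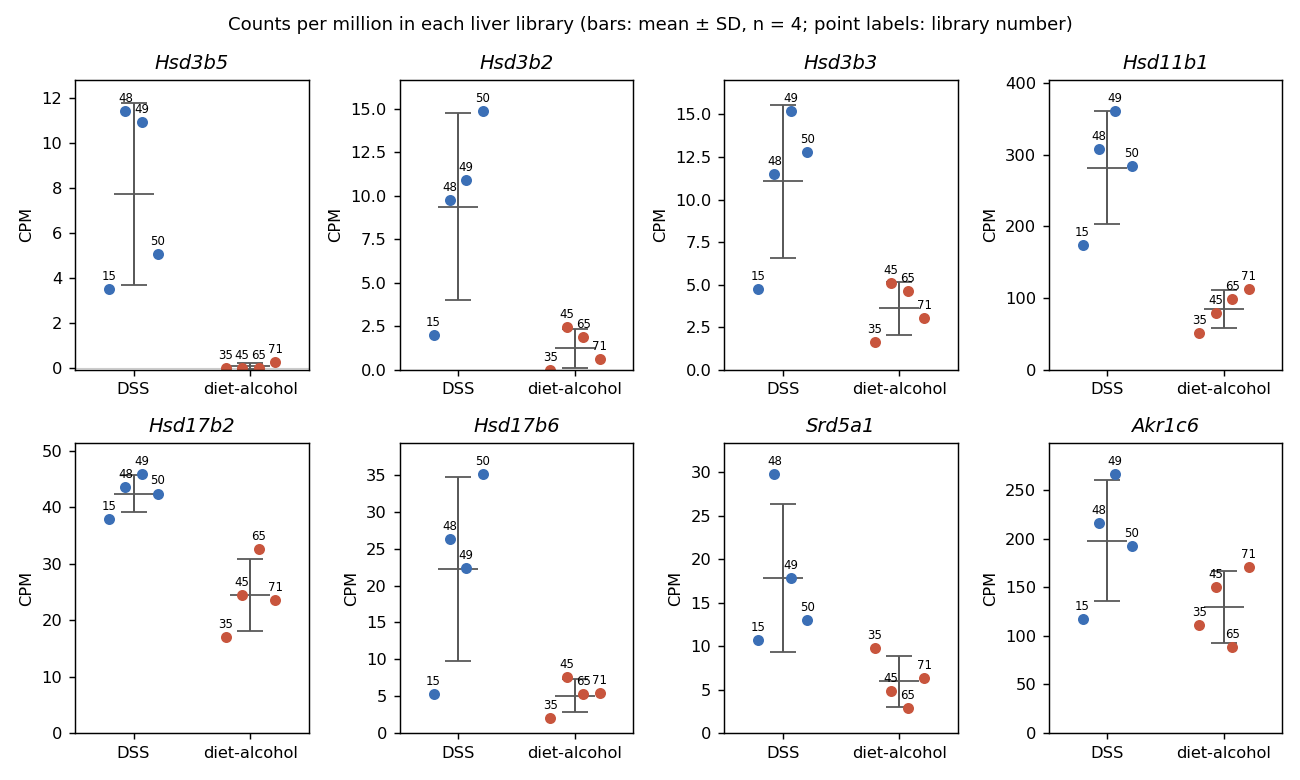
CPM of each of the 8 genes in every library, 1 panel per gene with its own linear axis; points are libraries with their numbers, and bars are the mean ± SD of 4 libraries. Hsd3b5 is at 0 in 3 diet-alcohol libraries, while the groups overlap for Hsd3b2, Hsd3b3, Hsd17b6 and Akr1c6.

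The family of 3-beta-hydroxysteroid dehydrogenases includes enzymes that make progestagens and androgens and, in rodent liver, forms that work mainly as 3-keto reductases. Hsd3b5 (ENSMUSG00000038092, chromosome 3, 98618634 to 98630252, minus strand, GRCm38) is one of the reductase forms and can inactivate dihydrotestosterone. Its raw counts were 56, 163, 91 and 34 in DSS libraries 15, 48, 49 and 50, and 0, 0, 0 and 7 in diet-alcohol libraries 35, 45, 65 and 71. In CPM this was 3.49, 11.4, 10.9 and 5.06 against 0, 0, 0 and 0.278. The groups did not overlap: the lowest DSS library held 34 counts, and all 4 diet-alcohol libraries together held 7. Mean levels were 7.72 ± 4.03 and 0.0695 ± 0.139 CPM (SD, n = 4 each). With the 3 empty libraries set at 3 counts each, mean CPM of Hsd3b5 was 34.3-fold lower in the diet-alcohol group. That is a ratio of means and no lower bound. The fitted log2 fold change was -6.36 ± 0.91 (SE; edgeR adjusted p = 0.0066), a value that depends on how the fit treats zeros: it was -9.74 without library 71, the only diet-alcohol library with a count. The call was kept when any 1 library was left out, but limma-voom, a test that weights log2 CPM, gave an adjusted p of 0.108.

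Hsd3b2 (ENSMUSG00000063730) and Hsd3b3 (ENSMUSG00000062410), known from kidney and liver, lie beside Hsd3b5 on the same strand of chromosome 3, at 98709255 to 98724543 and 98741523 to 98763127. Hsd3b2 stood at 1.995, 9.75, 10.9 and 14.9 CPM in DSS libraries 15, 48, 49 and 50. In diet-alcohol libraries 35, 45, 65 and 71 it stood at 0, 2.43, 1.88 and 0.595 CPM. DSS library 15 was the low one of its group and fell within the range of the diet-alcohol libraries. The log2 fold change was -2.94 ± 0.88 (SE; edgeR adjusted p = 0.167), and -2.52 without library 35, where no count was found.

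For Hsd3b3 the DSS libraries had 4.74, 11.5, 15.2 and 12.8 CPM and the diet-alcohol libraries 1.62, 5.06, 4.64 and 3.06 CPM, in the same orders. Here too only DSS library 15 reached into the diet-alcohol range. The log2 fold change was -1.62 ± 0.43 (SE; edgeR adjusted p = 0.118), and -1.37 without library 35.

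Read together, the 3 Hsd3b genes summed to 28.2 ± 12.1 CPM in DSS livers and 4.89 ± 2.65 CPM in diet-alcohol livers. Hsd3b5 supplied 34.1, 34.98, 29.4 and 15.5% of their counts in DSS libraries 15, 48, 49 and 50. It supplied 0, 0, 0 and 7.07% in diet-alcohol libraries 35, 45, 65 and 71. Hsd3b3 went the other way within the sum, from 35.2 to 46.3% in DSS livers to 67.6 to 100% in diet-alcohol livers, the highest being library 35 with 29 counts in the sum. The other genes of the chromosome 3 cluster that are named Hsd3b in the table, Hsd3b1, Hsd3b4 and Hsd3b6, had 0 counts in every library, as had the pseudogenes between them. These genes are closely similar copies, so the counting may have split or dropped reads among them. Zfp697, on the other strand across all 3 genes, had 50 counts, 12 in DSS and 38 in diet-alcohol libraries. In the same groups Hsd3b5 had 344 and 7 counts, Hsd3b2 362 and 91, and Hsd3b3 453 and 271.

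**Figure D2:**
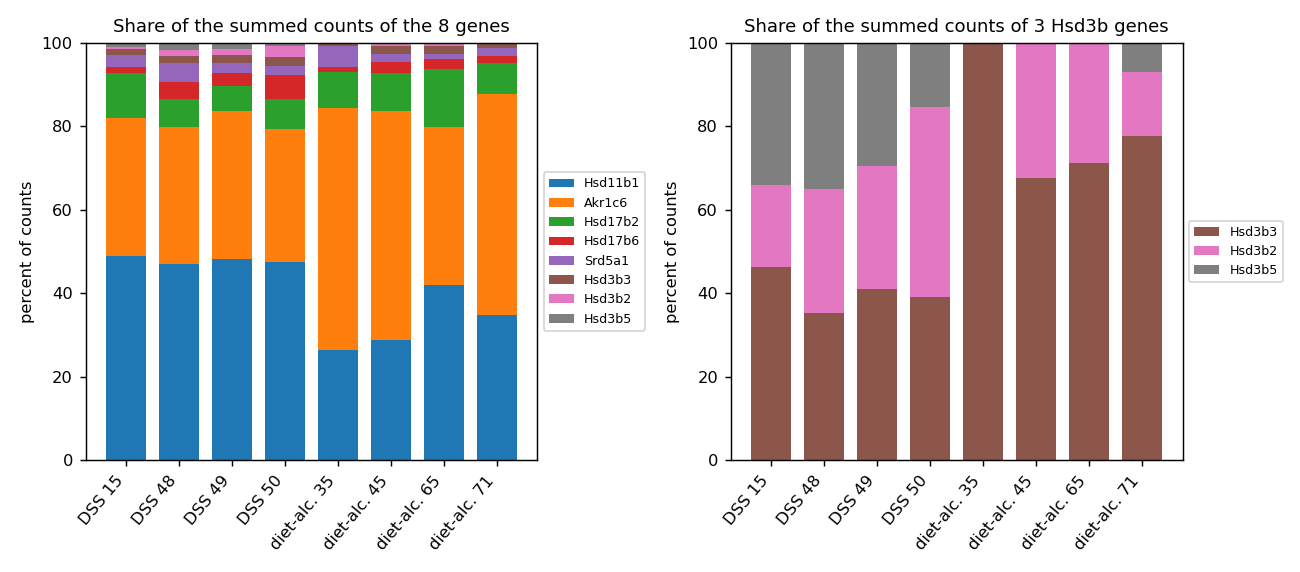
Stacked bars of the share of raw counts, in percent, that each gene took in each library: of the sum of all 8 genes (left) and of the sum of the 3 Hsd3b genes (right). Hsd3b5 takes 15.5 to 34.98% of the Hsd3b sum in DSS livers and 0 to 7.07% in diet-alcohol livers, and Hsd11b1 takes 47.0 to 48.96% of the sum of all 8 in DSS livers.

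Hsd11b1 (ENSMUSG00000016194, chromosome 1, 193221634 to 193264075, minus strand) encodes the enzyme that regenerates corticosterone from its inactive 11-keto form. It was measured with far more counts than the Hsd3b genes, 888 to 4396 per library. Its levels were 174, 308, 362 and 285 CPM in DSS libraries 15, 48, 49 and 50. Diet-alcohol libraries 35, 45, 65 and 71 had 51.2, 78.7, 98.1 and 112 CPM. Every diet-alcohol library was below the lowest DSS library, which was again library 15. The means were 282 ± 78.9 and 85.1 ± 26.5 CPM (SD, n = 4 each), a 3.32-fold difference. The log2 fold change was -1.73 ± 0.30 (SE; edgeR adjusted p = 0.017) and stayed between -1.91 and -1.55 with any 1 library left out. The call was lost without DSS library 48, 49 or 50 or diet-alcohol library 45, at adjusted p = 0.0764, 0.0711, 0.0643 and 0.0760. It was also lost with the mitochondrial share of counts as a covariate (log2 fold change -1.62, edgeR adjusted p = 0.163).

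H6pd makes the NADPH that Hsd11b1 uses in the endoplasmic reticulum, and its CPM was 170 ± 33.2 in DSS and 202 ± 16.6 in diet-alcohol livers (log2 fold change 0.25 ± 0.21, SE; edgeR adjusted p = 0.733). On the log2 CPM scale Hsd11b1 minus H6pd ranged from -0.22 to 1.51 in DSS livers and from -1.94 to -0.86 in diet-alcohol livers. Since H6pd was nearly level and Hsd11b1 was chosen for its difference, this ratio of transcripts restates the Hsd11b1 values. Lamb3, on the other strand across Hsd11b1, had 823 counts in all against 18660. Hsd11b2, which runs the opposite reaction in kidney, did not pass the filter.

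Hsd17b2 (ENSMUSG00000031844, chromosome 8, 117701904 to 117759027, plus strand) oxidises estradiol and testosterone to estrone and androstenedione. It had the narrowest spread of the 8 genes in DSS livers, at 37.9, 43.6, 45.9 and 42.5 CPM in libraries 15, 48, 49 and 50 (coefficient of variation 7.89%). In diet-alcohol libraries 35, 45, 65 and 71 it was at 16.96, 24.5, 32.6 and 23.6 CPM (26.2%). The groups did not overlap, yet the difference was small, 1.74-fold, and was not called (log2 fold change -0.80 ± 0.22, SE; edgeR adjusted p = 0.139).

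Hsd17b6 (ENSMUSG00000025396, chromosome 10, 127990936 to 128007611, minus strand) encodes an oxidative enzyme that acts on androstanediols. DSS libraries 15, 48, 49 and 50 had 5.30, 26.3, 22.4 and 35.2 CPM. Diet-alcohol libraries 35, 45, 65 and 71 had 2.01, 7.57, 5.30 and 5.40 CPM. DSS library 15 lay among the diet-alcohol libraries, and the other 3 DSS libraries lay above them all. The log2 fold change was -2.12 ± 0.53 (SE; edgeR adjusted p = 0.0924), and without DSS library 15 it was -2.46 and passed the test (edgeR adjusted p = 0.0183).

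Srd5a1 (ENSMUSG00000021594, chromosome 13, 69573449 to 69611442, minus strand) is the 5-alpha-reductase of liver, which reduces testosterone and also starts the clearance of glucocorticoids. It was at 10.7, 29.8, 17.9 and 13.0 CPM in DSS libraries 15, 48, 49 and 50, and at 9.74, 4.81, 2.87 and 6.27 CPM in diet-alcohol libraries 35, 45, 65 and 71. The groups were adjacent and did not overlap, with library 35 the highest of the diet-alcohol group, while it was the lowest of that group for Hsd3b2, Hsd3b3, Hsd11b1, Hsd17b2 and Hsd17b6. The log2 fold change was -1.58 ± 0.41 (SE; edgeR adjusted p = 0.108), and it passed the test at -1.91 once library 35 was left out (edgeR adjusted p = 0.0148). Nsun2 lies on the other strand across Srd5a1 and had more counts than Srd5a1 itself, 3131 against 1307, at log2 fold change -0.22 (edgeR adjusted p = 0.819). No source used here says whether the counting used strand, and reads of Nsun2 may be included in the Srd5a1 count.

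Akr1d1, the 5-beta-reductase that acts on the same steroids as Srd5a1, had 52.5 ± 18.3 CPM in DSS livers and 58.1 ± 31.3 CPM in diet-alcohol livers (log2 fold change 0.15 ± 0.37, SE; edgeR adjusted p = 0.927). On the log2 CPM scale Srd5a1 minus Akr1d1 ran from -2.20 to -0.88 in DSS livers and from -3.76 to -2.94 in diet-alcohol livers, a difference that again follows Srd5a1, since Akr1d1 was nearly level.

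Akr1c6 (ENSMUSG00000021210, chromosome 13, 4434306 to 4457877, plus strand) is an aldo-keto reductase with 17-beta activity that reduces androstenedione to testosterone, opposite to Hsd17b2. Its levels were 117, 216, 266 and 192 CPM in DSS libraries 15, 48, 49 and 50 and 111, 150, 88.2 and 170 CPM in diet-alcohol libraries 35, 45, 65 and 71. The groups overlapped, and the difference of 1.52-fold was the smallest of the 8 (log2 fold change -0.61 ± 0.29, SE; edgeR adjusted p = 0.468). The 95% interval of that log2 fold change ran from -1.25 to 0.039 and so included 0. It used the total degrees of freedom of the fit, 11.2, which add those borrowed from all genes to the residual ones.

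**Figure D3:**
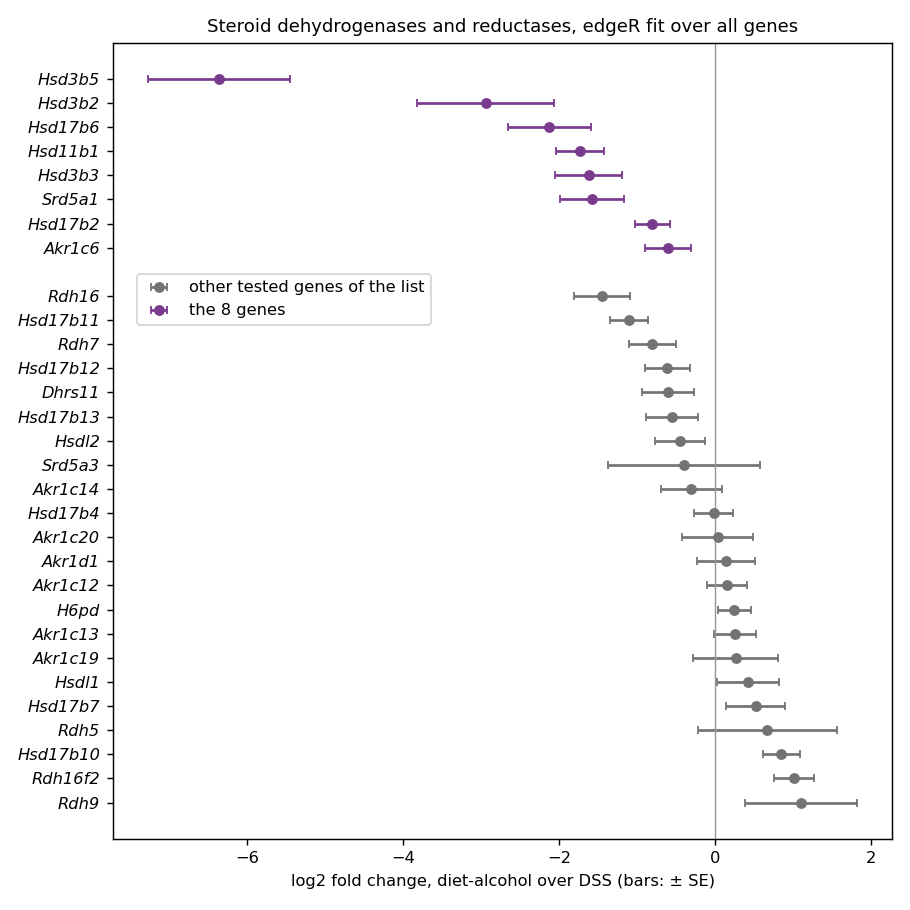
Log2 fold change, diet-alcohol over DSS, of the 8 genes (purple) and of the 22 other tested steroid dehydrogenases and reductases (grey), with bars of ± 1 SE from the edgeR fit. The 8 genes, chosen from this comparison, all lie below 0, from -6.36 for Hsd3b5 to -0.61 for Akr1c6, and the other 22 lie on both sides of 0.

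Levels between genes were compared in fragments per kilobase and library size (FPKM), the deposited values that account for gene length. In DSS livers the order of the mean FPKM was Akr1c6 at 95.2, Hsd11b1 at 64.9, Hsd17b2 at 21.6, Hsd17b6 at 13.8, Srd5a1 at 6.00, Hsd3b5 at 4.88, Hsd3b2 at 2.48 and Hsd3b3 at 1.69. Only Hsd11b1 and Hsd17b2 were neighbours whose libraries did not overlap. In diet-alcohol livers the first 5 kept their order, with mean FPKM of 62.5, 19.6, 12.4, 3.16 and 1.99, and were followed by Hsd3b3 at 0.552, Hsd3b2 at 0.326 and Hsd3b5 at 0.0436. Neighbours without overlap there were Akr1c6 and Hsd11b1, Hsd17b2 and Hsd17b6, and Srd5a1 and Hsd3b3. By mean FPKM Hsd3b5 thus went from the highest of the 3 Hsd3b genes to the lowest, though its libraries overlapped those of Hsd3b2 in both groups. In mean CPM, which ignores gene length, it was the lowest in DSS livers too, at 7.72 against 9.39 for Hsd3b2 and 11.1 for Hsd3b3.

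**Figure D4:**
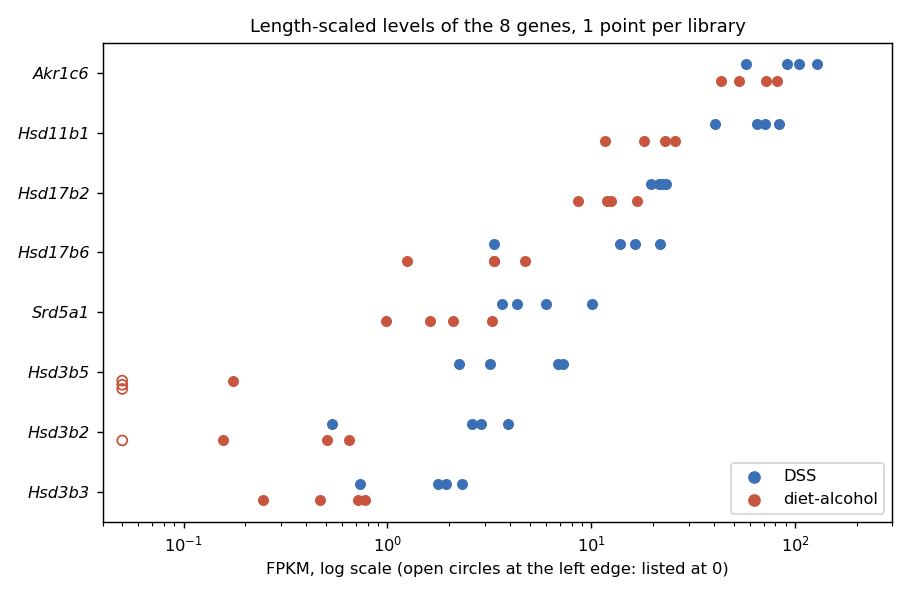
FPKM of the 8 genes on a log axis, 1 point per library, DSS in blue and diet-alcohol in red; open circles at the left edge are libraries where the gene is listed at 0. Akr1c6 and Hsd11b1 have the highest mean FPKM in both groups. In diet-alcohol livers the mean FPKM of Hsd3b5 is below those of the other 2 Hsd3b genes. In library 71 alone it is above Hsd3b2, at 0.174 against 0.157.

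Summed over the 8 genes, CPM was 591 ± 169 in DSS livers and 255 ± 55.1 in diet-alcohol livers. Hsd11b1 made up 47.0 to 48.96% of the summed counts in DSS livers, and 26.5 to 42.0% in diet-alcohol livers. Akr1c6 made up 31.98 to 35.5% and 37.8 to 57.7%. On the log2 CPM scale Hsd11b1 minus Akr1c6 lay between 0.44 and 0.57 in the 4 DSS livers and between -1.12 and 0.15 in the diet-alcohol livers.

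Within the DSS group, library 15 had the lowest CPM for all 8 genes. For Hsd17b6 it was at 5.30 CPM where the other 3 DSS libraries began at 22.4 CPM, and for Srd5a1 at 10.7 where they began at 13.0. Within the diet-alcohol group no library was lowest throughout: library 35 had the least of Hsd3b2, Hsd3b3, Hsd11b1, Hsd17b2 and Hsd17b6, and library 65 the least of Srd5a1 and Akr1c6.

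Hepatocyte markers moved with the groups. The summed CPM of the 9 measured hepatocyte markers of 10 listed ran from 46122 to 73144 in DSS livers, lowest in library 15, and from 31398 to 40093 in diet-alcohol livers (exact two-sided permutation p = 0.0286, n = 4 each, the smallest that the 70 assignments allow). Alb, the albumin gene, made up most of that sum and went from 42304 to 18457 CPM on average, while Fgb, a fibrinogen chain, was at 3096 and 6728 CPM. Of the 9 markers 8 had negative fold changes, and 0 were called by edgeR or limma-voom, with 3 at an unadjusted p under 0.05 and 2 called by DESeq2. The sum thus mostly follows Alb and is no count of hepatocytes. In bulk liver, fewer hepatocytes cannot be told apart from less RNA of these marker genes, Alb above all, in each hepatocyte.

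Per 10000 CPM of hepatocyte markers, a scaling chosen after seeing the data, Hsd3b5 went from 1.20 ± 0.449 to 0.0217 ± 0.0434 and Hsd11b1 from 45.3 ± 5.44 to 24.9 ± 10.2 (SD, n = 4 each). Hsd17b2 was level on this scale, at 7.04 ± 0.920 and 7.09 ± 2.55, and Akr1c6 ran from 25.5 to 36.4 in DSS livers and from 27.8 to 53.2 in diet-alcohol livers. In an edgeR fit scaled to these markers the median log2 fold change of all tested genes was 0.76. Hsd3b5 was at -5.50 (adjusted p = 0.0087) and Hsd11b1 at -0.86 (adjusted p = 0.0646) in that fit. Hsd17b2 stood at 0.0064 and Akr1c6 at 0.23, so the sign of these 2 genes turned, while all 8 stayed below the median of all genes.

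**Figure D5:**
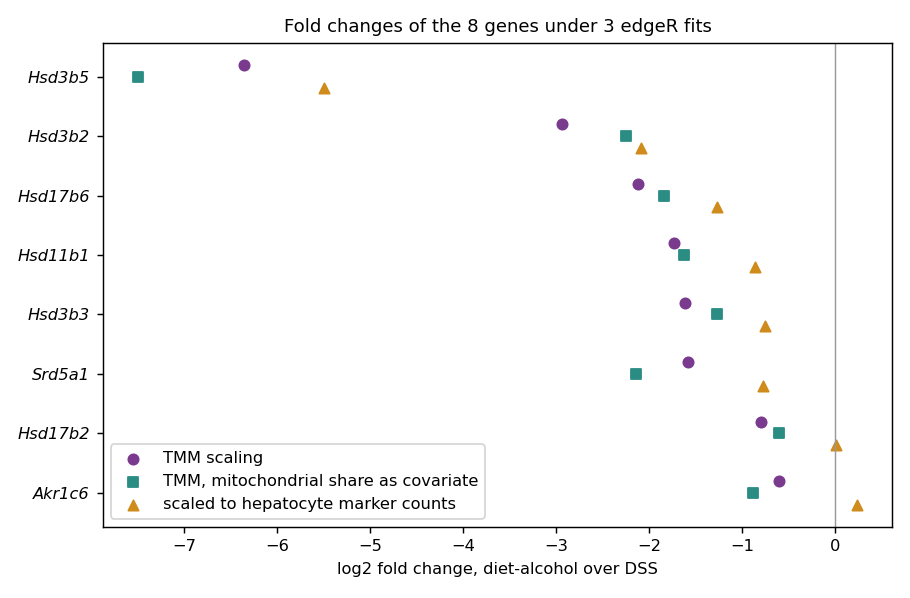
Log2 fold change of each of the 8 genes, diet-alcohol over DSS, in 3 edgeR fits: normalised to library size by TMM (circles), the same with the mitochondrial share as a covariate (squares), and scaled to hepatocyte marker counts (triangles). Hsd3b5 lies at -5.50 or lower in all 3, and Hsd17b2 and Akr1c6 lie at 0.0064 and 0.23 in the third.

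Other cell types and organs that make steroid enzymes were checked by their markers. Of 9 adrenal cortex markers 0 passed the filter, Cyp11a1, Cyp11b1, Cyp11b2, Nr5a1, Mc2r and Hsd3b1 had 0 counts in every library, and the summed CPM was 0.120 to 1.40 in DSS and 0 to 0.947 in diet-alcohol livers. The 7 gonad markers summed to 0 to 0.298 and 0 to 0.658 CPM, with Cyp19a1, Lhcgr and Fshr at 0. The kidney tubule markers Kap, Umod, Slc22a6 and Aqp2 were at 0, and the 8 listed summed to 3.12 to 10.3 and 2.14 to 7.70 CPM. Markers of white cells were higher with diet and alcohol. All 4 tested neutrophil markers of 10 rose (summed CPM of the 10, 2.76 to 12.8 against 33.8 to 73.4). Marco was the only 1 called among 9 Kupffer cell and macrophage markers, whose summed CPM was 192 to 318 against 331 to 688. Of the 4 neutrophil calls, 1 was left with limma-voom, 1 with the mitochondrial share in the fit, 3 without a filter, 1 without DSS library 48, 49 or 50, 2 without library 45 or 65 and 3 without library 15. Marco was not called with the mitochondrial share in the fit, without a filter, or without library 48, 49 or 35. Both sums gave an exact permutation p of 0.0286 (n = 4 each), and their part in the results on the 8 genes was not tested.

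Among the 10319 tested, named genes with at least 1 CPM on average, likeness to each of the 8 was measured as the Pearson correlation of log2 CPM over the 8 libraries, which contain the group difference. Most like Hsd3b5 were Mup3 (0.991), Mup21 (0.987) and Car3 (0.987); the first 2 encode major urinary proteins, pheromone carriers of male mouse liver, and Car3 a carbonic anhydrase. Mup21 was at 64.3 ± 20.0 CPM in DSS livers and 0.946 ± 0.339 CPM in diet-alcohol livers. Most like Hsd11b1 were Slco2a1 (0.993), a prostaglandin transporter gene, Mug2 (0.989) and Ptprf (0.988). Leading the others were Cyp2u1 for Hsd3b2 (0.991), Aox3 for Hsd3b3 (0.981), Tmed5 for Hsd17b2 (0.990), Senp5 for Hsd17b6 (0.978), Ugt2b38 for Srd5a1 (0.975) and Apoh for Akr1c6 (0.980).

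Among other steroid dehydrogenases and reductases no shift in 1 direction was measured. Of 40 listed genes 36 were in the table and 22 were tested; edgeR called 0 of them, 5 had an unadjusted p under 0.05, and DESeq2 called 3 and limma-voom 0. Their median log2 fold change was 0.093, with 10 negative and 12 positive. Hsd17b11, an enzyme of lipid droplets, had 77.2 ± 13.0 and 36.0 ± 9.96 CPM (log2 fold change -1.10 ± 0.24, SE; edgeR adjusted p = 0.0575). Rdh16, a retinol and 3-alpha-steroid dehydrogenase, was at -1.45 and its neighbour in the family Rdh16f2 at 1.02. Hsd17b10, a mitochondrial enzyme, was at 0.86. Without library 35 the fit called 3 of the list, Hsd17b11, Rdh16 and Rdh16f2, and the median was -0.20; it was also negative with limma-voom (-0.16) and with the mitochondrial share in the fit (-0.12). Hsd17b4, the peroxisomal multifunctional enzyme, was nearly level at -0.01.

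Of the enzymes that hydroxylate steroids or conjugate them for excretion, 27 were tested, 7 fell and 1 rose, and the median log2 fold change was -0.63. That median was -0.99 without library 35, and 0.15 when scaled to hepatocyte markers, where the median of all genes was 0.76. Ugt2a3, a glucuronosyltransferase, fell from 106 ± 36.9 to 11.3 ± 5.11 CPM (log2 fold change -3.23 ± 0.39, SE; edgeR adjusted p = 0.0028). Sult2a8, a sulfotransferase, fell from 226 ± 49.5 to 70.4 ± 13.7 CPM (-1.68 ± 0.24, adjusted p = 0.0066). Cyp3a11, the main steroid hydroxylase under the xenobiotic receptor PXR, fell from 309 ± 159 to 49.3 ± 13.2 CPM (-2.64 ± 0.44, adjusted p = 0.013). Cyp2a4, a testosterone hydroxylase whose near-identical copy Cyp2a5 may share its reads, fell from 4.71 ± 2.86 to 0.103 ± 0.153 CPM. Cyp2b9 was the gene that rose, from 1.35 ± 0.759 to 20.3 ± 20.5 CPM (3.91 ± 0.77, adjusted p = 0.032). Single libraries moved the count of 8 called: it was 3 without DSS library 48, 4 without DSS library 49, 2 without diet-alcohol library 45 and 13 without library 35. Calls were lost for Cyp3a11 without DSS 48 or diet-alcohol 45, for Cyp2a4 without DSS 50 or diet-alcohol 45, and for Cyp2b9 without any 1 library other than 71. The gene lists overlap: Cyp2a4 and Cyp2b9 also make up the female-biased calls below. Falls such as that of Ugt2b38 are counted again among the male-biased genes.

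Steroid receptors, carriers and electron donors gave no call: 16 of 20 were tested, edgeR, DESeq2 and limma-voom called 0, and 6 had an unadjusted p under 0.05. Their median log2 fold change was -0.25, or 0.52 when scaled to hepatocyte markers, where the median of all genes was 0.76. Serpina6, which encodes corticosteroid-binding globulin, had 22.5, 59.9, 91.9 and 56.8 CPM in DSS libraries 15, 48, 49 and 50. It had 0, 1.11, 4.42 and 20.99 CPM in diet-alcohol libraries 35, 45, 65 and 71, the last just under the lowest DSS library. Its log2 fold change was -3.10 ± 1.06 (SE; edgeR adjusted p = 0.239), and -5.13 without library 71 (adjusted p = 0.0455). Nr1i2, the gene of PXR, was at -0.61, Pgrmc1 at -0.72 and Por, which feeds electrons to cytochrome P450 enzymes, at -0.70. All 3 turned above 0 when scaled to hepatocyte markers but stayed below the median of all genes in that fit.

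Genes that glucocorticoids induce gave 2 rises and 0 falls among 18 tested, with a median log2 fold change of -0.33. Scaled to hepatocyte markers that median was 0.44, below the 0.76 of all genes. The rises were those of the metallothioneins Mt1, from 210 ± 130 to 1770 ± 698 CPM (3.08 ± 0.53, SE; edgeR adjusted p = 0.015), and Mt2 (3.32, adjusted p = 0.034), zinc-binding proteins that inflammation also induces. Per1, a clock gene, was at -1.22 (adjusted p = 0.0900) and G6pc, for the last step of glucose release, at -1.55 (adjusted p = 0.0924). Neither call on a metallothionein held without DSS library 48 or diet-alcohol library 45, which left 0 called, and that on Mt2 was also lost without library 15, 49, 35 or 65.

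Male-biased liver genes other than Hsd3b5, a list assembled with results of these data known and so no independent evidence of its direction, had 20 tested members: 12 fell, 0 rose, and all 20 fold changes were negative, with a median of -2.75. Mup20 fell from 1257 ± 336 to 57.0 ± 34.4 CPM (-4.46 ± 0.49, SE; edgeR adjusted p = 0.0018), and Selenbp2, a selenium-binding protein gene, from 62.7 ± 30.1 to 2.76 ± 1.94 CPM (-4.58 ± 0.52, adjusted p = 0.0022). The count ran from 9 to 14 with any 1 library left out. Of 9 tested female-biased genes 1 rose (Cyp2b9) and 1 fell (Cyp2a4), and their median was 0.55. The median was -0.41 without library 45, where the filter was rerun, and -0.74 with DESeq2. DESeq2 was run without the filter, so its median also covers low-count genes of the list. The count of 2 female-biased calls was 0 without library 45 or 50, 1 without library 15, 48, 49 or 65 and 4 without library 35. Acot4, a peroxisomal thioesterase, was at -1.53 (adjusted p = 0.05003).

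In growth hormone signalling 2 of 13 tested genes fell and 0 rose, with a median log2 fold change of -0.60. Scaled to hepatocyte markers that median was 0.23, below the 0.76 of all genes. Socs2, a feedback inhibitor that STAT5 induces, fell from 41.9 ± 9.28 to 6.28 ± 4.50 CPM (-2.77 ± 0.41, SE; edgeR adjusted p = 0.0076). Igfals, the carrier subunit of circulating IGF1, fell from 62.6 ± 19.1 to 9.02 ± 6.02 CPM (-2.79 ± 0.45, adjusted p = 0.011), a call lost without DSS library 48 or diet-alcohol library 45. Igf1 was at -0.99 (adjusted p = 0.185) and Socs3, which inflammatory cytokines induce, at 2.07 (adjusted p = 0.166). Adding the mitochondrial share to the fit ended the calls on Cyp3a11, Cyp2a4, Cyp2b9, Mt1, Mt2 and Igfals as well, at edgeR adjusted p between 0.0619 and 0.204, while Hsd3b5 was called (log2 fold change -7.50, adjusted p = 0.0403). Calls on Cyp2a4, Cyp2b9 and Mt2 were also lost with limma-voom.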

How the data were processed

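Liver mRNA libraries of 4 DSS and 4 diet-alcohol samples were sequenced. The deposited table holds raw counts by the authors for each gene, 1 column per library with replicates not pooled. GRCm38 and mm10 are the builds in the submitters' processing notes. The aligner, the counter and the strand option were not given in the sources used here. The deposited FPKM values are the authors' counts scaled by gene length and an effective library size. The authors' deposited table also holds a mean scaled signal per group, a log2 fold change and a p-value with its adjusted p, whose tool is not stated.

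Genes were filtered with filterByExpr, normalised with TMM and fitted in edgeR 4.0.16 under R 4.3.3 (robust quasi-likelihood F test) in a 2-group design without covariates, with Benjamini-Hochberg adjustment over all tested genes and a threshold of 0.05. CPM values are TMM-normalised, and log2 CPM uses a prior count of 2. The SE of a log2 fold change is its size divided by the square root of F. Marker sums and mitochondrial shares were compared by exact permutation of the group labels (two-sided).

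The 8 genes and all gene lists were chosen with earlier results of these data known. The text names all 8 genes, up to 4 genes per list with the smallest p, and the genes most alike by correlation (1 gene under this rule is not reported here), without predicted names and pseudogenes; H6pd, Akr1d1, Hsd17b4, the overlapping neighbours and the single markers were added after their values were seen. Tested on simulated data for this comparison (11756 genes tested), the fit recovered 7.94% of 63 genes changed 2-fold, 58.7% of 63 changed 4-fold and 90.3% of 62 changed 8-fold, with 5 false calls.

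Alternatives were RLE and upper-quartile normalisation, TMM without mitochondrial genes, DESeq2 1.42.0, limma-voom (limma 3.58.1), a non-robust fit, no filter, a filter of 1 CPM in 4 libraries, limma on log2(FPKM + 1) and log2(FPKM + 0.1), the mitochondrial share as a covariate, and leaving out each library. Scaling to hepatocyte marker counts was added after seeing the data. Protein and promoter sequences were not used here.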

Additional observations from a re-analysis of the deposited data

Results flagged for a closer look

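In groups of 4 libraries, a value was marked when its gap to the nearest other library was nearly as wide as the group's whole range (Dixon's test), which chance does in about 1 of 20 groups. Of 88 groups 8 were marked, 1 of them among the 8 enzyme genes: diet-alcohol library 71 held Hsd3b5 at 0.278 CPM where the other 3 held none. That mark rests on 7 counts and was fixed by the zeros, since any count beside 3 empty libraries is marked. The rate of 1 in 20 does not hold for such groups. In diet-alcohol library 65, Cyp2a4 stood at 0.331 CPM (the others 0 to 0.0412), Selenbp2 at 5.63 CPM (1.43 to 2.07) and Socs2 at 13.0 CPM (3.99 to 4.05). The Cyp2a4 value is the limit of 3 counts in that library, so its mark rests on 3 counts. In DSS library 15, Socs3 stood at 9.23 CPM (1.64 to 2.38) and the cholangiocyte markers summed to 25.2 CPM (13.0 to 14.4). The adrenal cortex markers summed to 0.947 CPM in diet-alcohol library 45 (0 to 0.119), and the gonad markers to 0.298 CPM in DSS library 50 (0 in the others). The gonad mark was likewise fixed by the zeros.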

How the results depend on the processing

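The count of called genes, 148 in the report's fit, was 431 with DESeq2, 320 without a filter, 55 with the mitochondrial share as a covariate, 2333 with scaling to hepatocyte markers and 58 to 308 with 1 library left out (58 without DSS 48, 74 without DSS 49, 77 without DSS 50, 83 without diet-alcohol 45, 308 without library 35). Of the 8 enzyme genes, 2 were called in the report's fit, 5 with DESeq2, 1 with limma-voom, 4 without a filter, 1 with the mitochondrial share, 1 with hepatocyte scaling and 1 to 3 with 1 library left out. For their single fold changes, 144 values under the alternatives kept direction and side of the threshold, 7 lost the call, 7 gained it and 2 turned direction. The 2 turns, both under hepatocyte scaling, were Hsd17b2 at 0.0064 and Akr1c6 at 0.23. Among the other named genes 3 turned, under the same scaling: Nr1i2 at 0.16, Pgrmc1 at 0.072 and Por at 0.059. The median of all tested genes was 0.76 under that scaling.

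Calls in the gene lists changed as follows. With DESeq2 they were 3 for other dehydrogenases, 13 for hydroxylases and conjugating enzymes, 6 for glucocorticoid-induced and 4 for female-biased genes. With limma-voom they were 4 for hydroxylases and 0 for female-biased genes. Without a filter they were 3 for other dehydrogenases, 4 for glucocorticoid-induced and 4 for growth hormone genes. With the mitochondrial share they were 3 for hydroxylases, 0 for glucocorticoid-induced, 0 for female-biased and 1 for growth hormone genes. With hepatocyte scaling they were 5 for other dehydrogenases, 4 for receptors and carriers and 4 for female-biased genes. The filter of 1 CPM and both FPKM fits gave 1 female-biased call each; log2(FPKM + 1) gave 1 among receptors and carriers and log2(FPKM + 0.1) gave 1 among glucocorticoid-induced genes. With 1 library left out, calls ran from 0 to 3 for other dehydrogenases, 2 to 13 for hydroxylases, 0 to 1 for receptors, 0 to 3 for glucocorticoid-induced, 9 to 14 for male-biased, 0 to 4 for female-biased and 1 to 3 for growth hormone genes. The cause of these shifts was not tested.

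No paired analysis was possible because the labels give the 2 groups no shared library numbers. Depth limits the Hsd3b genes most, with 0 to 164 counts per library, and changes near 2-fold would mostly be missed.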
